A study of Mus musculus with 10 samples.

Results

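Transcripts of 10 genes of tissue macrophages were followed in mediastinal T cell tumours that arose in mice carrying the NPM-ALK transgene. The genes were C1qa, C1qb, C1qc, Csf1r, Fcgr3, Lilr4b, Ctss, Lgmn, Pla2g7 and Hmox1, each taken from the probe set that names this gene alone, and all 10 lay above the limit set for dim probe sets, among 12670 genes tested of 19937 that had such a probe set. They were chosen by name as macrophage genes, with their differences between genotypes and between arrays of high and low Cd2 already known, so both comparisons are given as descriptions. The NPM-ALK fusion kinase drives anaplastic large cell lymphoma, and WASP, encoded by Was, promotes actin branching in blood cells. The mice were on a C57BL/6 background and developed lymphoma at 4 to 5 months of age. The groups were WASP-deficient NPM-ALK mice, of both sexes per the design text (5 mice), and NPM-ALK mice with intact WASP (5 mice), with 1 array for each mouse. The labels do not state which promoter drives the transgene, or the sex of single mice. Whole tumour RNA was measured, so that more cells of a type and more RNA per cell cannot be told apart.

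Macrophages take up dying cells and antibody-coated particles and break them down in lysosomes. C1q is the recognition molecule of the classical complement pathway and is assembled from 3 chains, encoded by C1qa, C1qb and C1qc, which tissue macrophages make in large amounts. Csf1r encodes the receptor for the growth factor CSF1, on which most tissue macrophages depend. The other genes encode an activating antibody receptor (Fcgr3), a leukocyte immunoglobulin-like receptor of myeloid cells (Lilr4b), lysosomal proteases (Ctss and Lgmn), a secreted enzyme that inactivates platelet-activating factor (Pla2g7) and the inducible enzyme that degrades heme (Hmox1). The question was whether the 10 are high and low on the same arrays.

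Values below are log2 intensities, on which a difference of 1 is a 2-fold change, and levels of different genes cannot be compared because each probe set binds differently. Median intensities of the 10 arrays lay between 116.7 and 122.7 on the linear scale. Was was at 7.92 to 8.20 on WASP-deficient arrays, against 9.11 to 9.34 on WASP-intact arrays, and matched the label on every array. The T cell marker Cd3e was at 12.06 to 12.59 on all 10 arrays. Cd2, an adhesion receptor of T cells, split the arrays: WASP-deficient array 1 (11.52) and WASP-intact arrays 4 (11.18) and 5 (11.30) lay above 9 and are called Cd2-high, and the other 7, between 6.10 and 6.90, Cd2-low. This split was seen in the data and is no group of the study. Unlike Cd3e, the T cell genes Cd3d and Cd3g were lower on all Cd2-high arrays. Cd3d was at 5.26 to 6.47 there, against 8.96 to 10.08 on Cd2-low arrays. Cd3g was at 6.29 to 10.24 on Cd2-high arrays, against 11.45 to 12.23 on Cd2-low arrays. Cd247 was at 9.46 to 10.60 on Cd2-low arrays, and the Cd2-high arrays lay inside that range. Xist, made in female cells, was at 4.50 to 5.58 on the WASP-deficient arrays, against 11.52 to 11.90 on WASP-intact arrays 1, 2, 4 and 5 and 4.40 on WASP-intact array 3, so that genotype and sex-linked level differ on 1 array alone.

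The 3 C1q genes lie side by side on chromosome 4, with no other protein-coding gene between them, and were high and low on the same arrays. C1qa was at 9.64, 9.90, 9.22, 9.51 and 8.93 on WASP-deficient arrays 1 to 5, against 9.62, 9.05, 9.22, 9.28 and 9.34 on WASP-intact arrays 1 to 5. WASP-deficient array 2 was the highest and WASP-deficient array 5 the lowest of all, so that the WASP-deficient range enclosed the WASP-intact one. C1qb was at 10.92, 11.11, 10.85, 10.89 and 10.33 on WASP-deficient arrays, against 11.05, 10.58, 10.66, 10.44 and 10.44 on WASP-intact arrays. C1qc was at 10.41, 10.50, 10.02, 10.12 and 9.43 on WASP-deficient arrays, against 10.29, 9.85, 9.79, 9.67 and 9.69 on WASP-intact arrays. The same arrays, WASP-deficient 2 and 5, held the highest and the lowest value of all 3 chains. C1qb and C1qc had a Pearson r of 0.96 and a Spearman rho of 0.96 over the 10 arrays. Their promoters, from RefSeq on build GRCm38.p6 and written from 250 bases before to 50 after the start site, are shown because this pair was the closest among the complement genes. Capitals mark GAGGAA or its reverse TTCCTC, a PU.1-type form of the site that ETS factors bind.
C1qb (chr4:136886151-136886450, minus strand): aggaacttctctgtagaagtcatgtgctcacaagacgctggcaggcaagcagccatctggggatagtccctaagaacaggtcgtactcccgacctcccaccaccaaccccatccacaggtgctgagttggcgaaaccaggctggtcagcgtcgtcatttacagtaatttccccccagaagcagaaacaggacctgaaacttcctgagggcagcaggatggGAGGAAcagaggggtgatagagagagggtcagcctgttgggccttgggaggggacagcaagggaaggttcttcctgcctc
C1qc (chr4:136892865-136893164, minus strand): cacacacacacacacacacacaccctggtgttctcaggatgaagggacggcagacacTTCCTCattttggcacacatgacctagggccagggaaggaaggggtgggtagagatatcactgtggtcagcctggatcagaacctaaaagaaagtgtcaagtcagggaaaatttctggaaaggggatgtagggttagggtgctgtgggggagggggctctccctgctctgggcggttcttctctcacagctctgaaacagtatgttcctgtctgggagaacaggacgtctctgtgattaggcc
Each window held GAGGAA or TTCCTC 1 time. Other ETS sites were not searched. Over 32851 promoters of the same length, 28.3% held GAGGAA on either strand. Of 9 windows of 7 members, 5 did (C1qb, C1qc, Ctss and both of Fcgr3, which overlap). A match describes these letters and shows no binding.

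Among the receptors, Csf1r had r of 0.84 with C1qa over the 10 arrays, Fcgr3 0.50 and Lilr4b 0.30. With C1qb the values were 0.44 for Csf1r, 0.58 for Fcgr3 and 0.51 for Lilr4b, so that this order held for C1qa and not for C1qb. Csf1r was at 8.57, 8.84, 8.12, 8.62 and 7.98 on WASP-deficient arrays, against 8.41, 8.04, 8.20, 8.59 and 8.61 on WASP-intact arrays. Its highest and lowest values were again those of WASP-deficient arrays 2 and 5, and the 3 Cd2-high arrays lay close together, at 8.57 to 8.61. Over the 7 Cd2-low arrays its r with C1qb was 0.82. Fcgr3 was at 8.82, 8.80, 8.76, 9.42 and 8.47 on WASP-deficient arrays, against 8.43, 7.99, 8.38, 8.16 and 8.30 on WASP-intact arrays. WASP-deficient array 4 stood highest, and the genotypes did not overlap, by a gap of 0.04. Lilr4b was at 8.21, 8.32, 8.58, 8.52 and 8.23 on WASP-deficient arrays, against 8.04, 7.74, 7.95, 7.71 and 7.99 on WASP-intact arrays. The genotypes were apart by 0.17 here. Lilr4b lies beside its near copy Lilrb4a on chromosome 10, and the array may not tell them fully apart. The probe set of Lilrb4a was at 7.88 to 8.31 on WASP-deficient arrays, against 7.18 to 7.83 on WASP-intact arrays.

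The lysosomal proteases and the secreted phospholipase formed another pattern, with WASP-deficient arrays 3 and 4 among the 3 highest and WASP-intact arrays 4 and 5 among the 3 lowest for each gene. Ctss, cathepsin S, which trims the MHC class II invariant chain, was at 9.21, 9.65, 9.57, 9.71 and 8.91 on WASP-deficient arrays, against 8.92, 8.54, 9.27, 8.25 and 8.61 on WASP-intact arrays. The genotypes overlapped, because WASP-intact array 3 lay above 2 of the WASP-deficient arrays. Lgmn, the asparagine-specific protease legumain, was at 10.57, 10.65, 10.97, 10.90 and 10.51 on WASP-deficient arrays, against 10.47, 10.39, 10.48, 9.96 and 10.01 on WASP-intact arrays. The Cd2-high WASP-intact arrays 4 and 5 were the lowest by a wide margin, and without overlap the genotypes were 0.03 apart. Pla2g7 was at 8.96, 9.19, 9.40, 9.53 and 9.05 on WASP-deficient arrays, against 8.62, 8.67, 8.82, 8.06 and 8.08 on WASP-intact arrays. It ran beside Lgmn on nearly every array, with r of 0.97 and rho of 0.96, although the genes lie on chromosomes 12 and 17. Their RefSeq promoters are given for comparison with those of C1q, for Lgmn the first of its 2 windows in the table. None of these windows holds GAGGAA or TTCCTC, so no letters are capitals, and other ETS sites were not searched.
Lgmn (chr12:102439679-102439978, minus strand): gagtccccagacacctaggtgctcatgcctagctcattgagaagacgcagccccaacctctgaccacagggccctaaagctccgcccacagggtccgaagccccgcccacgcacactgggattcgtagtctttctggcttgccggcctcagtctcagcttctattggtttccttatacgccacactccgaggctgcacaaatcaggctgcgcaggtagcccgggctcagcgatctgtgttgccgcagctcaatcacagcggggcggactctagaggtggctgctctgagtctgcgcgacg
Pla2g7 (chr17:43568201-43568500, plus strand): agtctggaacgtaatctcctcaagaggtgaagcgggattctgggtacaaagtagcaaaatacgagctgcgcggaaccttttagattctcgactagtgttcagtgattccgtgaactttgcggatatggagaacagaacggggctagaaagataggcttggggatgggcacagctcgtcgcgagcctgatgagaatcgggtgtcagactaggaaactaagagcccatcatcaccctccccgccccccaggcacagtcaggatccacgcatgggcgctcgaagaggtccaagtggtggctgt

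Hmox1 varied most of the 10. It was at 9.28, 9.97, 10.09, 10.93 and 10.34 on WASP-deficient arrays, against 9.26, 9.22, 8.73, 8.89 and 9.13 on WASP-intact arrays. Its lowest and highest arrays were 4.62-fold apart, against 1.72- to 2.77-fold for the other 9 genes. WASP-deficient array 4 was highest, and WASP-deficient array 1, which is Cd2-high, was only 0.02 above the highest WASP-intact array.

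**Figure D1:**
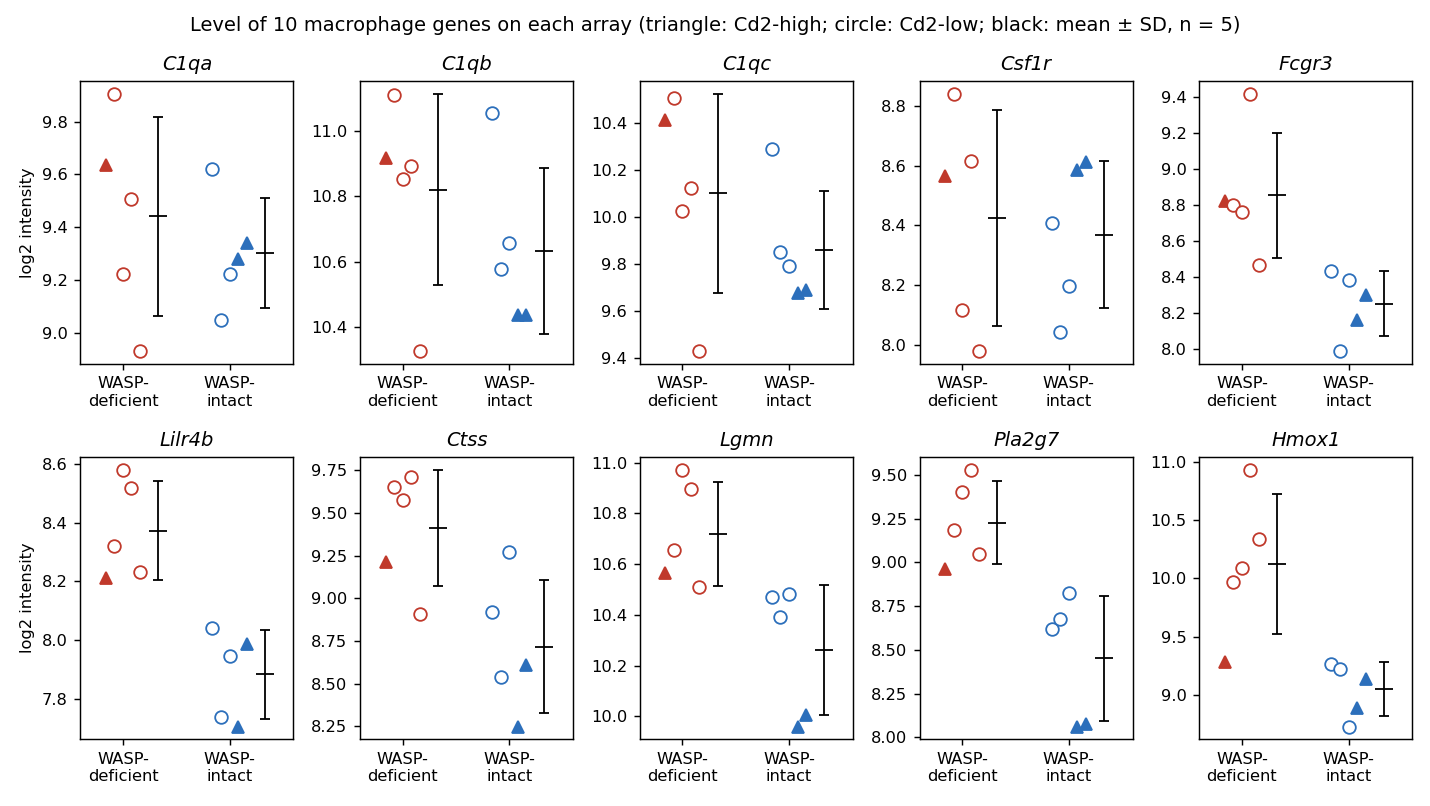
Log2 intensity (y axis) of each gene on each array, WASP-deficient in red and WASP-intact in blue, from array 1 on the left to 5 on the right in each group; triangles are Cd2-high and circles Cd2-low arrays, and black marks give the mean ± SD (n = 5). The WASP-deficient values enclose or overlap the WASP-intact ones for C1qa, C1qb, C1qc, Csf1r and Ctss, and lie above them for Fcgr3, Lilr4b, Lgmn, Pla2g7 and Hmox1.

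Between genotypes, all 10 genes had a higher mean in WASP-deficient lymphomas, against 48.9% of all genes tested, and the differences fell into a small and a larger class. The 4 genes C1qa, C1qb, C1qc and Csf1r differed by 0.14 (SE 0.18), 0.19 (SE 0.16), 0.24 (SE 0.20) and 0.05 (SE 0.18), each close to or under its SE. Differences were 0.49 for Lilr4b (SE 0.11), 0.60 for Fcgr3 (SE 0.16), 0.46 for Lgmn (SE 0.14), 0.70 for Ctss (SE 0.21), 0.77 for Pla2g7 (SE 0.18) and 1.08 for Hmox1 (SE 0.26). Hmox1 averaged 10.12 ± 0.60 in WASP-deficient and 9.05 ± 0.23 in WASP-intact lymphomas (SD, n = 5 each), a 2.11-fold ratio. The members' median difference was 0.47, against -0.004 over all genes tested, and 95% of all genes lay between -0.43 and 0.46. None of the 10 passed in limma over all genes (adjusted p = 0.999 for each), where 0% of genes were called higher and 0.00789%, which is Was, lower. At an unadjusted p under 0.05, 6 of the 10 were higher, against 1.56% of all genes, and 0 lower, against 1.33%. In 5 of the 10 every WASP-deficient array lay above every WASP-intact one, against 0.324% of all genes. Because the genes were picked with this comparison in view, nothing is read from these shares.

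With the Xist level as a term, chosen after seeing the data, the difference was 0.20 for Ctss (SE 0.29), 0.27 for Lgmn (SE 0.23) and 0.44 for Pla2g7 (SE 0.27), each at least 1.5 times smaller than without it. It was 0.46 for Fcgr3 (SE 0.27), 0.45 for Lilr4b (SE 0.18) and 1.38 for Hmox1 (SE 0.42) in the same fit. The difference there was 0.17 for Csf1r (SE 0.30), 0.16 for C1qa (SE 0.30), 0.13 for C1qb (SE 0.28) and 0.25 for C1qc (SE 0.34). In this fit Ctss thus lay within the range of the C1q genes and Lgmn just above it. Only WASP-intact array 3 parts genotype from the Xist level, so these estimates rest mainly on that array. Ctss was highest of the WASP-intact arrays there, at 9.27. Without that array and without the Xist term, the difference was 0.83 for Ctss, 0.51 for Lgmn and 0.87 for Pla2g7. Within the 7 Cd2-low arrays, 4 WASP-deficient against 3 WASP-intact, the differences were 0.60 for Fcgr3, 0.50 for Lilr4b, 0.55 for Ctss, 0.31 for Lgmn, 0.59 for Pla2g7 and 1.26 for Hmox1. They were 0.09 for C1qa, 0.03 for C1qb, 0.04 for C1qc and 0.17 for Csf1r there.

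**Figure D2:**
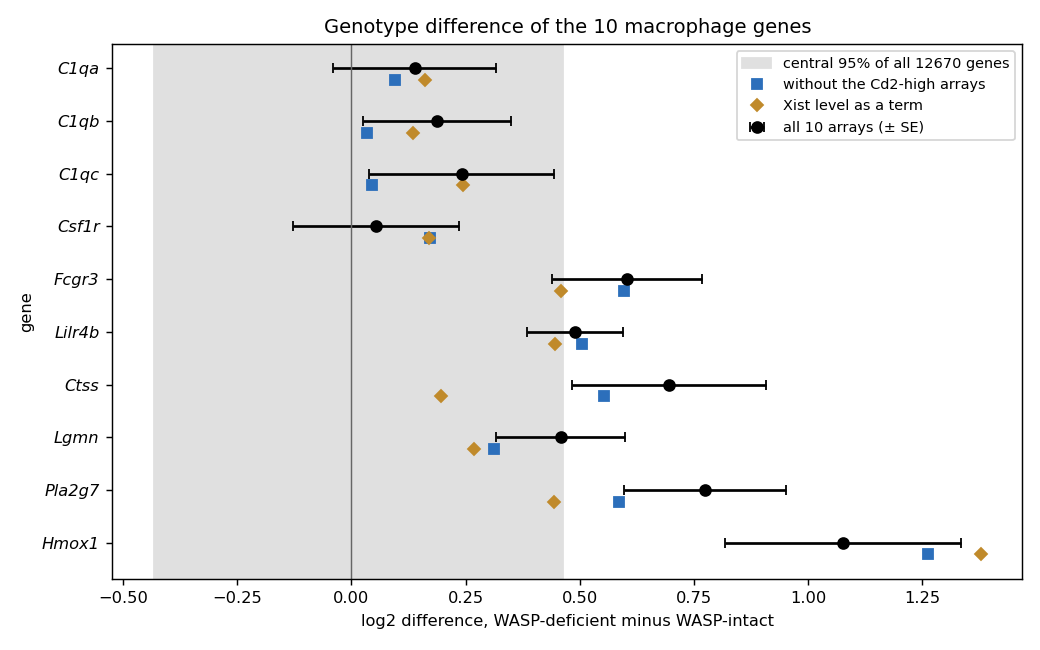
Log2 difference, WASP-deficient minus WASP-intact (x axis), of each gene (y axis); black points and bars give the limma estimate ± SE over 10 arrays, blue squares the value without the Cd2-high arrays, ochre diamonds the value with the Xist level as a term, and grey the range of 95% of all genes, -0.43 to 0.46. The C1q genes, Csf1r and, at its upper edge, Lgmn lie inside the grey range, and Hmox1, at 1.08, lies farthest from it.

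Cd2-high and Cd2-low arrays overlapped for every one of the 10 genes. Among all genes, 14.4% had all 3 Cd2-high arrays above all 7 Cd2-low arrays and 16.1% had them below, against 0 of 10 members in either direction. C1qa was at 9.28 to 9.64 on Cd2-high arrays, against 8.93 to 9.90 on Cd2-low arrays, and Csf1r was at 8.57 to 8.61, against 7.98 to 8.84. For Lgmn the ranges were 9.96 to 10.57 on Cd2-high arrays, against 10.39 to 10.97 on Cd2-low arrays. The Cd2-high arrays were not alike for Lgmn and Pla2g7, where WASP-intact arrays 4 and 5 were lowest of all and WASP-deficient array 1 lay among the Cd2-low values. Of 25 other macrophage and monocyte genes tested, 2 were higher on all Cd2-high arrays. These were Adgre1, which encodes the macrophage marker F4/80, at 8.41 to 8.67 on Cd2-high arrays, against 7.11 to 8.28 on Cd2-low arrays, and the integrin gene Itgam, at 7.74 to 8.04, against 6.42 to 7.58. Both were named after their values were seen.

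Pairs of the 10 genes differed widely in how close they were. Over 45 pairs, r ran from -0.16 for Csf1r with Lgmn to 0.97 for Lgmn with Pla2g7, with a median of 0.58 and 43 pairs above 0. Among C1qa, C1qb, C1qc and Csf1r, 6 pairs had a median r of 0.84 (0.44 to 0.96). Among the other 6 genes, 15 pairs had a median of 0.85 (0.63 to 0.97). The 24 pairs that join a gene of each set had a median of 0.40 (-0.16 to 0.70). The 2 sets were seen in the data, all points share the same 10 arrays, and no test is given for them. Within the 7 Cd2-low arrays the medians were 0.94, 0.84 and 0.32 in the same order, and all 24 pairs between the sets were above 0 there. With each gene centred on its mean within each genotype they were 0.83, 0.51 and 0.22. The median among the other 6 genes was thus 0.51 after centring and 0.85 before it. Lgmn with Pla2g7 stayed at 0.95, and Ctss with Hmox1 was at 0.12.

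**Figure D3:**
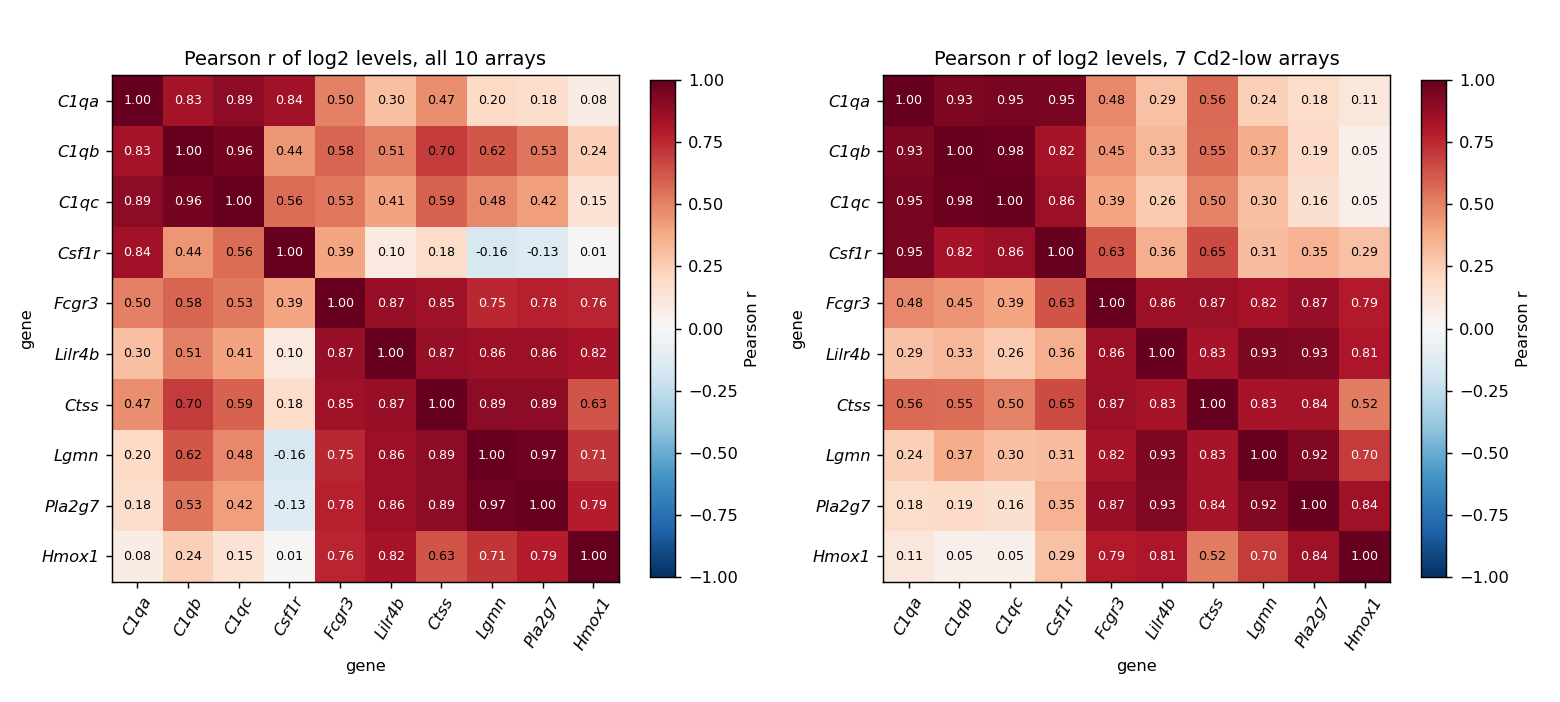
Pearson r between the log2 levels of each pair of genes (both axes), over all 10 arrays on the left and over the 7 Cd2-low arrays on the right, with red for positive and blue for negative values. The median r is 0.84 among the C1q genes and Csf1r, 0.85 among the other 6 genes and 0.40 between them, but on the left C1qb with Csf1r (0.44) lies below C1qb with Ctss (0.70).

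C1qa was followed across the whole table to read the members against other genes. C1qc had r = 0.89 and rho = 0.81 with C1qa (permutation p = 0.00065 and 0.00714), Csf1r r = 0.84 and rho = 0.81 (permutation p = 0.00228 and 0.00716), and C1qb r = 0.83 and rho = 0.79 (permutation p = 0.00338 and 0.00853). These stood at ranks 7, 16 and 21 of 12669 genes. Fcgr3 had r = 0.50 (permutation p = 0.138) and Ctss r = 0.47 (permutation p = 0.173). Values were 0.30 for Lilr4b, 0.20 for Lgmn, 0.18 for Pla2g7 and 0.08 for Hmox1, the last near the median of 0.04 over all genes. None of the 9 relations passed after adjustment over all 12669 genes (adjusted permutation p of 0.924 or more for every r and rho), and neither did any other gene. A limma fit of every gene on the C1qa level called 0% of genes after adjustment. At an unadjusted p under 0.05 it gave 3 of the 9 members with a positive slope, against 2.65% of all genes, and 0 with a negative slope, against 0.584%. Per unit of C1qa the slope was 1.06 for C1qc (SE 0.20), 0.84 for Csf1r (SE 0.19) and 0.78 for C1qb (SE 0.19). Without WASP-deficient arrays 2 and 5, the farthest from the median of C1qa, r was 0.77 for C1qc, 0.68 for Csf1r and 0.67 for C1qb, and only that of C1qc had an unadjusted exact p under 0.05. Within the Cd2-low arrays r was 0.95, 0.95 and 0.93 for these 3 genes.

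**Figure D4:**
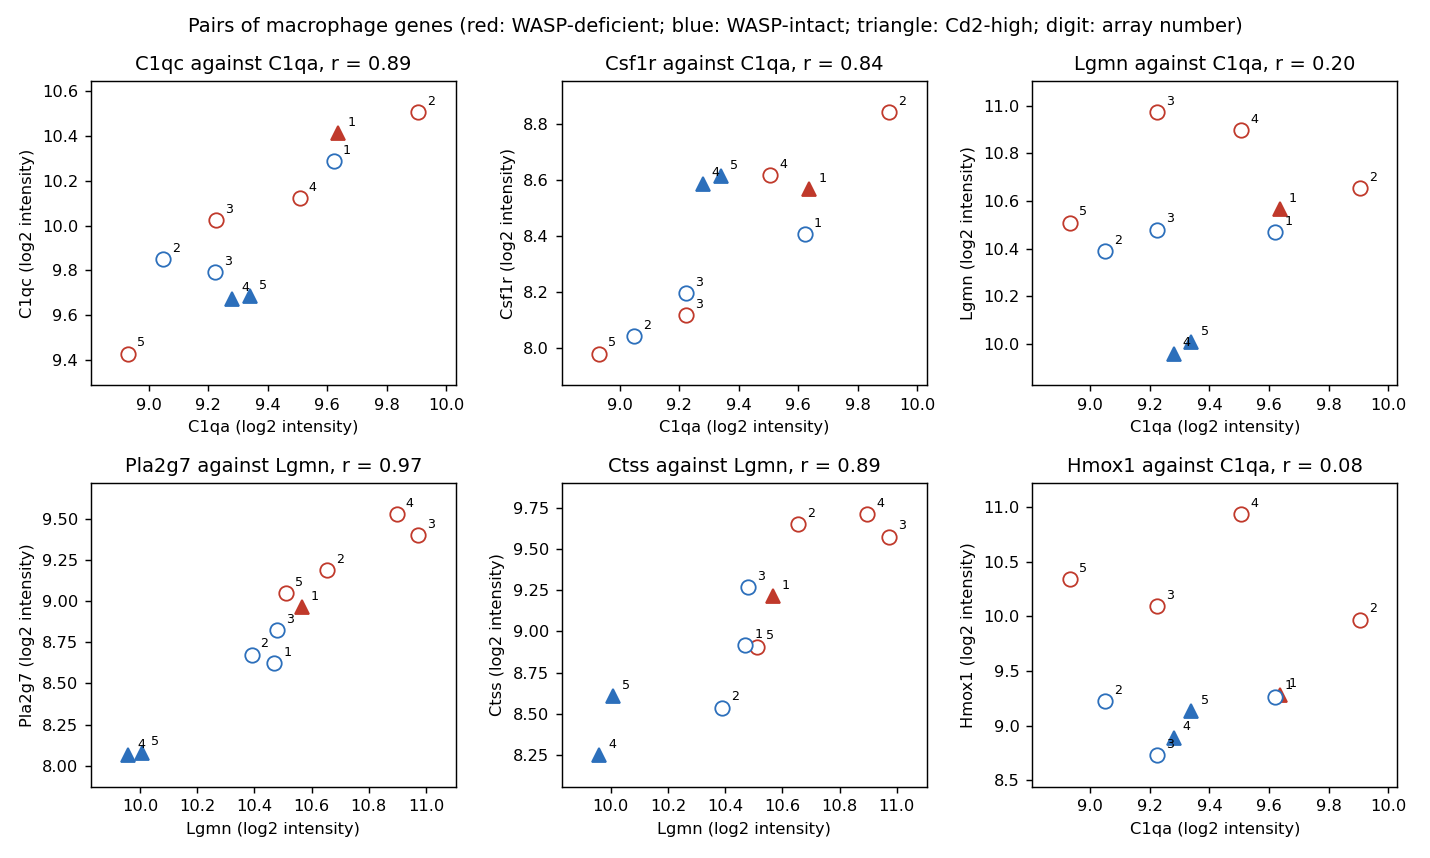
Log2 intensity of one gene against another on each array, WASP-deficient in red and WASP-intact in blue, with triangles for Cd2-high arrays and the array number beside each point. C1qc and Csf1r go with C1qa (r of 0.89 and 0.84) and Pla2g7 and Ctss with Lgmn (0.97 and 0.89), while Lgmn and Hmox1 scatter against C1qa (0.20 and 0.08).

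The genes most like C1qa were, by r over 10 arrays, Lpcat2 (0.93), Ifit3 (0.91), Parm1 (0.91), Dapl1 (0.91), Cd74 (0.90), Mtx1 (0.89), H2-Eb1 (0.88) and Kcnk6 (0.86). Lpcat2 encodes an enzyme that makes platelet-activating factor, Ifit3 is induced by interferon, and Cd74 and H2-Eb1 encode the invariant chain and a chain of MHC class II. The lowest values were those of 4931428F04Rik (-0.93), Arsg (-0.81), C730014E05Rik (-0.80) and Tox (-0.80), which encodes a transcription factor of T cells. Without WASP-deficient arrays 2 and 5, r was -0.84, -0.74, -0.51 and -0.36 for these genes in the same order. For the highest genes it then ran from 0.65 for Kcnk6 to 0.91 for Parm1. Lpcat2 was at 7.34 to 8.77, with WASP-deficient arrays 2 and 5 again highest and lowest. Its r with Lgmn was 0.08.

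Lgmn was followed in the same way, a choice made after seeing the data. Pla2g7 ranked 1 of 12669 genes and was the only gene that passed a limma fit on the Lgmn level, which called 0.00789% of genes (slope 1.49, SE 0.14, adjusted p = 0.00578). With genotype as a further term, 391 genes passed. The permutation test over the arrays gave p = 5.0e-05 for its r and an adjusted p of 0.120. Ctss (r = 0.89), Lilr4b (0.86), Fcgr3 (0.75) and Hmox1 (0.71) did not pass (limma adjusted p of 0.0643, 0.0770, 0.0894 and 0.101). C1qb was at 0.62, C1qc at 0.48, C1qa at 0.20 and Csf1r at -0.16. At an unadjusted p under 0.05, 6 of 9 members had a positive slope, against 10.1% of all genes, and 0 a negative one, against 15.0%. These shares and r values are a description, since Lgmn was picked for its r with other members. The members were also chosen with their genotype differences known, which several share with Lgmn. With each gene centred within genotype, r with Lgmn was 0.95 for Pla2g7, 0.77 for Ctss and 0.64 for Lilr4b. It was 0.42 for Fcgr3, 0.30 for Hmox1, 0.56 for C1qb, 0.35 for C1qc, 0.03 for C1qa and -0.35 for Csf1r. Without WASP-intact arrays 4 and 5, the farthest from the median of Lgmn, r was 0.92 for Pla2g7 and Lilr4b and 0.82 for Ctss. Both of these arrays are Cd2-high, and Cd2 itself had r = -0.61 with Lgmn. The relations of gene lists with Lgmn given below were not parted from the Cd2 split.

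Other macrophage genes had a higher median r with C1qa than with Lgmn, a difference that was not tested. Of 25 genes of macrophages and monocytes outside the 10, 23 had a positive r with C1qa, with a median of 0.52, against 55.3% positive and a median of 0.04 over all genes. At an unadjusted p under 0.05, 10 of the 25 had a positive slope on C1qa, against 2.65% of all genes, and 0 a negative one, against 0.584%. On Lgmn 4 had a positive slope, against 10.1%, and 2 a negative one, against 15.0%. With Lgmn 16 of the 25 were positive, with a median of 0.08. The 3 of highest level were Lyz2 (lysozyme), at 0.52 with C1qa and -0.14 with Lgmn, Cd68, a lysosomal membrane protein, at 0.57 and 0.50, and Tyrobp, a signalling adaptor, at 0.74 and 0.58. Highest with C1qa were Axl, a receptor for dying cells, at 0.79, and Cybb, a subunit of the phagocyte oxidase, at 0.78. Between genotypes 0 of the 25 passed, 18 had higher and 7 lower means in WASP-deficient lymphomas, and the median difference was 0.17, against -0.004 over all genes. Their summed linear intensity, dim probe sets included, ran from 7808 to 12695 on WASP-deficient arrays, against 7962 to 10641 on WASP-intact arrays. Cd14, Cd163, Ccr2, Vsig4, Timd4 and Mgl2 had a dim probe set and were not tested.

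In the pathways of the members, 0 genes passed between genotypes, and none after adjustment on the C1qa level. Of 10 other complement genes, 7 were positive with C1qa (median r 0.20), led by Cfp, which encodes properdin of the alternative pathway, at 0.81 and Cfb at 0.41. Calr, which encodes calreticulin, was at -0.18 and Serping1, the C1 inhibitor, at 0.18. Of 10 genes of Fc receptors and their signalling, 9 were positive (median 0.22), with the receptor Fcgr1 at 0.74, the shared Fc receptor chain Fcer1g at 0.69, the phosphatase Ptpn6 at 0.11 and Vav1 at 0.06. With Lgmn, Fcer1g was at 0.67, and Ptpn6 and Vav1 were at -0.75 and -0.78. Ptpn6 and Vav1 were also higher on all Cd2-high arrays. They were at 9.76 to 9.82 and 10.45 to 10.74 there, against 9.04 to 9.41 and 9.63 to 10.36 on Cd2-low arrays. Of 13 genes around the CSF1 receptor, 8 were positive with C1qa (median 0.12), among them Tyrobp at 0.74 and Csf2rb at 0.56, with Csf2ra at -0.16 and Runx1 at -0.14. Csf1 and Il34, the ligands of the receptor, named here for that role, were at 0.18 and 0.27.

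Lysosomal genes did not go with Lgmn as a whole. Of 25 tested, 12 had a positive r with Lgmn (median -0.03), against 50.7% of all genes, and 19 with C1qa (median 0.15). At an unadjusted limma p under 0.05, 5 of the 25 had a positive slope on Lgmn, against 10.1% of all genes, and 6 a negative one, against 15.0%. Over this list, r with Lgmn ran from -0.81 for Ctso to 0.84 for Ctsb. The protease genes Ctsb and Ctsh were at 0.84 and 0.71 with Lgmn and at 0.47 and 0.70 with C1qa. Psap, Cst3 and Laptm5 were at 0.12, -0.07 and -0.80 with Lgmn. Laptm5 was higher on all Cd2-high arrays, at 12.39 to 12.54, against 11.97 to 12.23 on Cd2-low arrays. Of 17 heme, iron and NRF2 target genes, the group of Hmox1, 11 were positive with Lgmn (median 0.16) and 11 with C1qa (median 0.06). The ferritin gene Fth1 and the heme transporter gene Slc48a1 were at 0.85 and 0.84 with Lgmn. Hmox2 was at -0.10, the iron exporter gene Slc40a1 at 0.07 and Gclc, of glutathione synthesis, at 0.08. These were named for their level or their r with C1qa. Over the list, r with Lgmn ran from -0.73 for Hp to 0.89 for Gclm, also of glutathione synthesis. Of 17 lipid genes, the group of Pla2g7, 9 were positive with Lgmn (median 0.004), with Fabp5 at 0.69, Apoe at 0.46 and Npc1 at -0.63. Their r with Lgmn ran from -0.84 for Pafah1b1 to 0.91 for Pla2g15. The 10 genes of inhibitory myeloid receptors and their signalling hold Lilrb4a, the neighbour of Lilr4b. All 10 were positive with C1qa (median 0.52), with Lair1 at 0.75 and Sirpa at 0.54. With Lgmn 8 of the 10 were positive (median 0.24). Lilrb4a itself was at 0.17 with C1qa and at 0.91 with Lgmn. Of 13 genes of dying cell uptake, 9 were positive with C1qa (median 0.16), with Itgb5 at 0.69, Mfge8 at -0.17, Lrp1 at -0.27 and Rac1 at -0.04.

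**Figure D5:**
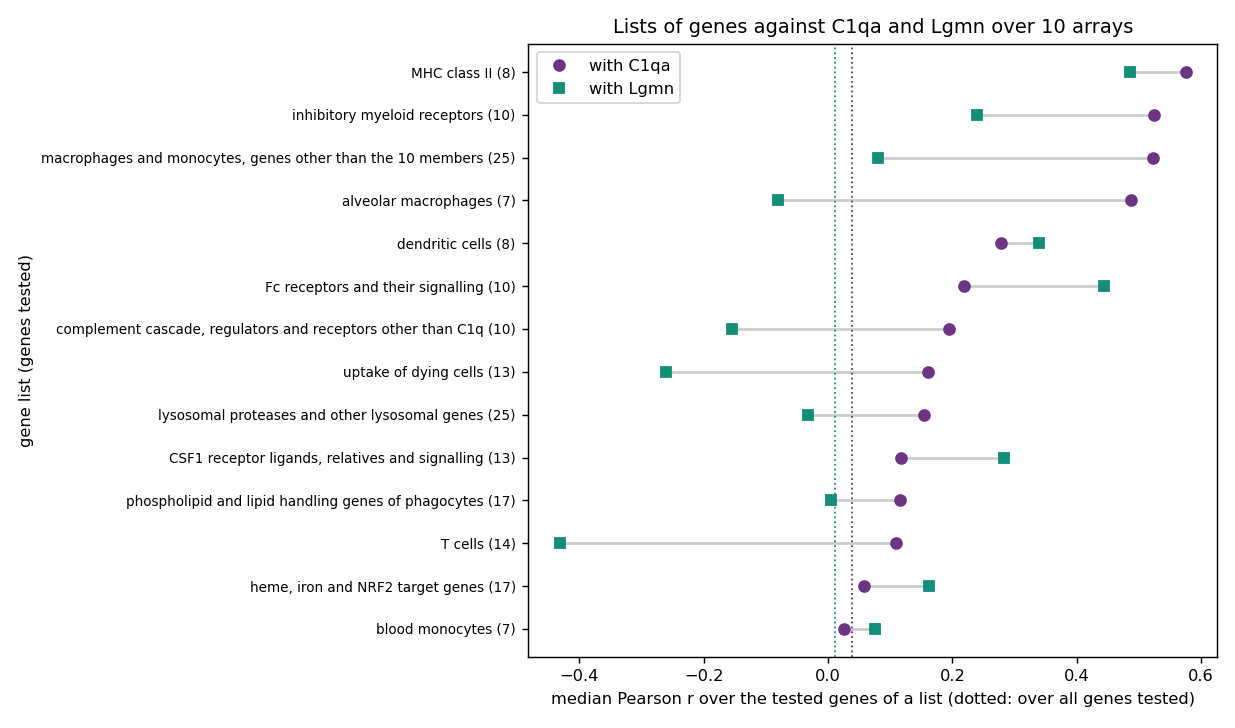
Median Pearson r (x axis) over the tested genes of each list (y axis, number tested in parentheses), with C1qa as purple circles and with Lgmn as green squares; dotted lines give the medians over all genes tested, 0.04 and 0.01. Macrophage genes outside the 10 lie at 0.52 with C1qa and at 0.08 with Lgmn, and T cell genes at 0.11 and -0.43.

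Several of the 10 genes are also made by other blood cells, whose markers are given beside them. Of 8 MHC class II genes 6 had a positive r with C1qa (median 0.58), against 55.3% of all genes. H2-Aa was at 0.84, H2-Ab1 at 0.47, and H2-Oa and H2-Ob, named after their values were seen, at -0.49 and -0.30. At an unadjusted limma p under 0.05, 3 of the 8 had a positive slope on C1qa, against 2.65% of all genes, and 0 a negative one, against 0.584%. The positive count was 4 of 10 for inhibitory myeloid receptors, 3 of 10 for Fc receptor genes and 3 of 13 for dying cell uptake. It was 2 of 8 for dendritic cells, 2 of 17 for lipid genes and 0 of 7 for blood monocytes. The summed linear intensity of this list, over 9 genes with the dim Cd86 included, was 4204 to 8400 on WASP-deficient arrays, against 2563 to 6349 on WASP-intact arrays. The sums of the other lists here also include dim probe sets. For dendritic cells 6 of 8 tested genes were positive with C1qa (median 0.28), with 6 others dim, and the sum was 2303 to 3138 on WASP-deficient arrays, against 1890 to 2432 on WASP-intact arrays. Alveolar macrophage genes were positive in 6 of 7 cases (median 0.49), with Siglecf the exception at -0.62. The probe sets of Marco and Chil3 were dim. The sum of this list was 2395 to 4562 on WASP-deficient arrays, against 2662 to 3431 on WASP-intact arrays. Blood monocyte genes had a median of 0.02 over 7, with a sum of 1916 to 3392 on WASP-deficient arrays, against 1737 to 4035 on WASP-intact arrays. Of 13 neutrophil genes 12 were dim, of 11 NK cell genes 8, of 10 mast cell and basophil genes 8 and of 9 B cell genes 7. T cell genes, 14 tested, had a median of 0.11 with C1qa and -0.43 with Lgmn, and their sum was 22483 to 29653 on WASP-deficient arrays, against 25460 to 28504 on WASP-intact arrays. Of the 14, 3 were higher and 2 lower on all Cd2-high arrays, against 14.4% and 16.1% of all genes. The part of these cells in the members' levels was not tested.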

How the data were processed

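Gene expression was measured in 10 primary lymphomas, 5 WASP-deficient (labelled WASP -/-) and 5 WASP-intact (labelled WT), with 1 array each. The authors deposited 1 intensity per probe set and array. The submitters' processing notes name RMA, a method that subtracts background, equalises the arrays' distributions and combines probes, so differences in total RNA between arrays can no longer be seen. No version of it is named there. Values lay between 3.309 and 15587.9, which is linear, and log2 was taken. No pair of arrays was identical, and the number of arrays limits the precision.

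Of 34760 probe sets, 21640 had 1 gene symbol in the platform's annotation, 1321 had several and 11799 are unnamed here. Symbols were checked by gene ID against RefSeq genes (GRCm38.p6, 21553 matched, 0 changed). Probe sets with a mean under the 40th percentile (log2 6.35) were left out as dim, and the highest mean was kept per gene, which gave 12670 genes. Each of the 10 members had 1 probe set. Genotypes (WASP-deficient minus WASP-intact) and slopes on a gene's level were fitted with limma 3.58.1 in R 4.3.3 and adjusted by Benjamini-Hochberg over all genes, with a threshold of 0.05. The limma fits were tested on simulated data. Correlations have two-sided permutation p-values from 100000 resamples, exact for 9 arrays or fewer, adjusted over all genes. No p-value was adjusted over the members alone.

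The members and the 18 gene lists (272 symbols) were chosen with earlier results of these data known. The rule for named genes took the members, Cd2 and Was, the 8 highest and 4 lowest in r with C1qa, and in each list the 3 of highest level and the 2 of highest r. The lists of other cell types are given mainly by their counts. Xist, Kdm5d, Cd3d, Cd3g, Cd247, Lilrb4a, H2-Oa, H2-Ob, Adgre1, Itgam, Csf1 and Il34 were added after their values were seen. So were Siglecf, Ctso, Hp, Gclm, Pafah1b1, Pla2g15 and the genes named as dim. Alternatives were the filter, the probe set rule, array centring, an offset of 16 before log2, eBayes with trend, array weights, the replicate number, the Cd2 split, the Xist level and single arrays left out. Promoters came from RefSeq (GRCm38.p6). C1qa, Csf1r and Hmox1 were not matched there. Besides GAGGAA, 4 motifs were searched on both strands. The E-box CACGTG was in 7.15% of all promoters and 1 of the 9 member windows. The AP-1 site TGANTCA was in 7.81% and 0. The antioxidant response core TGANNNNGC was in 41.3% and 4, and the STAT site TTCNNNGAA in 8.30% and 2. Python 3.11.15 and matplotlib 3.10.9 served for the plots.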

Additional observations from a re-analysis of the deposited data

Results flagged for a closer look

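On WASP-intact array 1, C1qc was at 10.29, apart from the other 4 WASP-intact arrays, at 9.67 to 9.85. C1qb was also highest there among the WASP-intact arrays, at 11.05, against 10.44 to 10.66, without standing as far apart relative to its range. This was 1 flag among 20 groups of 5 arrays, and chance gives about 1 in 20.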

How the results depend on the processing

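The direction of the genotype difference held for all 10 members in 21 alternatives, with the exception of Csf1r, which was below 0 without WASP-deficient array 2 or WASP-intact array 2 (down to -0.05). No member passed over all genes in any of the 21. The count of genes called between genotypes was 1, and 1 to 4 with single arrays left out (2 without WASP-deficient array 1, 4 without WASP-intact array 3). It was 2 without the Cd2-high arrays, 0 with the replicate number as a block and 0 with the Xist level. The numbers share no pairing: deviations of same-numbered arrays correlated between -0.71 and 0.37, over 0.1 for 2 of 5 numbers, and 1 of 10 arrays correlated best with its own number. The block left the members' differences as they were. Genes that follow C1qa numbered 0, but 18 with array weights, C1qc and Csf1r among them, and 1 with the Cd2 split as a term. With Lgmn followed instead the count was 1, and 391 with genotype as a further term. The 3 members with an unadjusted permutation p under 0.05 on C1qa became 1 without the 2 arrays farthest from its median, 1 with Csf1r followed and 5 with Lgmn followed, and stayed 3 with any single array left out. The r of Hmox1 with C1qa turned to -0.057 without WASP-deficient array 2, -0.041 without WASP-deficient array 4 (up to 0.34 with other arrays left out) and -0.21 when centred within genotype, where Pla2g7 turned to -0.048. The overlap between Cd2-high and Cd2-low arrays held for all 10 members in 4 alternatives. The causes were not tested. With 10 arrays a relation must be close to pass over all genes.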
